A study of Mus musculus with 12 samples.

Results

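The quantity described here is the difference between 2 responses to RA, taken here to be retinoic acid: the RA change of a gene in LOXL2 knockdown cells minus its RA change in control cells. It was computed for each of 22180 genes from all 12 arrays of the study, as the mean of the shLOXL2 arrays with RA minus the mean of those without RA, less the same difference in shCT arrays. A value below 0 therefore means that the change in knockdown cells was more negative, which is a smaller rise for a gene induced by RA and a deeper fall for a gene repressed by it. The cells on all arrays were E14, an established line of mouse embryonic stem cells, transduced either with a control short hairpin RNA (shCT) or with a hairpin against LOXL2 (shLOXL2), an enzyme of the lysyl oxidase family. Each construct was sampled without RA at day 0 and with RA at day 1, with 3 arrays in each of the 4 groups. No cells were sampled at day 1 without RA, so RA and 1 day of culture cannot be told apart, and "with RA" covers both. The 3 arrays of a group are not described as separate cultures. P-values thus rest on the spread among these arrays alone, and that spread may be technical. Only 1 hairpin construct against LOXL2 is labelled, so effects of LOXL2 loss and of the hairpin itself cannot be told apart.

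Retinoic acid enters the nucleus and binds heterodimers of its receptors (RAR) and the retinoid X receptors (RXR), which sit on response elements made of repeated hexamers. Bound receptors exchange corepressors for coactivators, and the first genes to respond include enzymes that break retinoic acid down, the receptor gene Rarb and the 3′ members of the Hox clusters. In embryonic stem cells the same signal is known to shut down pluripotency genes as the cells leave self-renewal.

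The promoters of Rarb and Cyp26a1 are shown because these 2 direct targets, the receptor RARβ and the enzyme that clears retinoic acid, had nearly the same RA change in both constructs. Each run is the 250 bases before the RefSeq start on the gene's own strand (build GRCm38.p6), and the capitals mark a direct repeat of 2 hexamers spaced by 5 bases. Rarb lies on the minus strand (chr14:16575477-16575726), and its repeat begins 53 bases before the start. Cyp26a1 lies on the plus strand (chr19:37697558-37697807), and its repeat begins 32 bases before the start and reads on the opposite strand.
Rarb: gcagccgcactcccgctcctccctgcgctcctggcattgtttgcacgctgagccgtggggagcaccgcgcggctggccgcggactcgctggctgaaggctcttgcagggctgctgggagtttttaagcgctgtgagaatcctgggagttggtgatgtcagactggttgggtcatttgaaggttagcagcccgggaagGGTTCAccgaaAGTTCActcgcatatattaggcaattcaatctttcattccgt
Cyp26a1: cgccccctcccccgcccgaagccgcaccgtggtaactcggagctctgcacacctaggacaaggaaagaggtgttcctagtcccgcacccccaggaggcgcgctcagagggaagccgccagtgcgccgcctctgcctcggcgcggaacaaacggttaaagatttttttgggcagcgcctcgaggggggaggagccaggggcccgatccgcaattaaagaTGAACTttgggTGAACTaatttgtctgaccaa

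The search took the consensus hexamer AGGTCA together with the variant AGTTCA that both promoters hold, the related hexamer GGGTCA and finally the variant GGTTCA seen in Rarb. Any pair of them counted, as direct repeats spaced by 5, 2 or 1 bases on either strand, and no other motif was searched. A repeat spaced by 5 was found for 2 of 98 strongly induced genes with a RefSeq promoter (2.04%), for 0 of 65 strongly repressed genes, and for 13 of 16990 genes tested (0.0765%). The 2 are Rarb and Cyp26a1 themselves, whose own hexamers were put in the search, so their count tests nothing. Repeats spaced by 1 were found for 0 of the 98 strongly induced genes and for 30 of the 16990 (0.177%). Repeats spaced by 2 were found for 3 of the 98 (3.06%) and for 14 of the 16990 (0.0824%). The 3 were the chloride channel gene Ano1 (TGACCCcgTGACCC), the mitochondrial carrier gene Slc25a21 (TGACCCtgTGAACT) and the matrix protein gene Tinagl1 (GGGTCActGGGTCA). These are matches of letters, and no binding was measured.

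The arrays were alike in scale, with medians from 4.58 to 4.68 on the log2 scale and correlations of 0.954 to 0.992 between arrays over genes. The 10 markers of embryonic stem cells had a mean log2 signal of 8.94, and 10 fibroblast or feeder markers a mean of 4.35, near the array medians. The largest axis of variation within groups held 49.4% of the within-group variance, and 4 arrays lay high on it: replicate 3 of both shCT groups and replicate 1 of both shLOXL2 groups (positions 19.4 to 31.3). Farthest from the middle, at the other end, lay replicate 1 of shCT without RA (position -36.1). The array numbers high on the axis differ between constructs. For genes whose values on all 12 arrays are printed, the difference without these 4 arrays is therefore added where it moved by over 1.5 times or changed sign. The 7 measured markers of the two-cell-like state stood out in 1 of the constructs: their mean signal was 5.34 in replicate 1 of shLOXL2 without RA and 6.10 in replicate 1 with RA, against 4.23 to 5.06 in the other 10 arrays. Replicate 3 of shCT was not high in them, at 4.56 without RA and 4.92 with RA.

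Loxl2 itself is covered by 2 transcript clusters that are also annotated to the predicted gene Gm21451, and signal from either gene cannot be told apart. In cluster 17301634 the log2 signals were 5.64, 5.17 and 5.71 in shCT without RA, 5.85, 5.90 and 6.51 in shCT with RA, 4.79, 4.96 and 5.07 in shLOXL2 without RA, and 5.14, 5.30 and 5.11 in shLOXL2 with RA. Every shLOXL2 array lay below every shCT array of the same RA state, with an exact permutation p of 0.005 for the average knockdown difference, the smallest that 400 relabellings allow. The difference of RA responses in this cluster was -0.34 ± 0.28 (SE, limma interval -0.95 to 0.27, exact two-sided p = 0.595). In cluster 17301670 the RA change was 0.95 in shCT and 0.03 in shLOXL2. Its difference was -0.92 ± 0.32 (limma interval -1.62 to -0.23, exact two-sided p = 0.11). That interval, not adjusted for the number of tests, did not hold equal responses. In this cluster the arrays without RA overlapped between the constructs, while those with RA did not. The exact p-values for the difference come from relabelling constructs within each RA state, which assumes no knockdown effect at all. Both clusters had an average knockdown difference (exact permutation p of 0.005 and 0.03), so these p-values do not test the difference of responses alone. Taf10, which encodes a TFIID subunit, is covered by 2 clusters that Ilk shares, and they had differences of -0.05 and 0.10.

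Not a single gene was called for a different RA response between the constructs. In the limma fit over all 12 arrays, 0 of 22180 genes (0%) had a Benjamini-Hochberg adjusted p below 0.05, and the smallest adjusted p was 1. At an unadjusted p below 0.05 there were 652 genes (2.94%), beside an expectation of 1109 for this number of tests if no gene differed, 405 of them with a lower (1.83%) and 247 with a higher value (1.11%) in knockdown cells. Over all genes the median difference was 0.0088, with 48.2% of genes below 0 and 51.8% above. The count of 652 became 1099 without replicate 1 of shCT without RA, and 983 without the 4 arrays high on the axis. It lay above 1109 in some fits that describe the spread between arrays in another way, with 1487 genes when the axis was a covariate and 3555 with array weights. The axis was taken from the within-group spread of these same arrays. As a covariate it therefore lowers that spread by construction, without changing the estimates, and the 1487 genes are no separate evidence. The array weights, from 0.332 to 6.26, were also estimated from the spread of these arrays. The 3555 genes are thus no separate evidence either. In each of these 4 fits 0 genes were called.

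To ask about genes that respond to RA, these were chosen on the RA change averaged over both constructs, whose estimate is independent of the difference in a balanced design. On this average 1224 genes rose (5.52%) and 1065 fell (4.8%). Among them, 142 rose and 92 fell by at least 1 log2 unit, and these 234 are called strongly induced and strongly repressed below. In shCT alone 480 genes rose (2.16%) and 463 fell (2.09%), and in shLOXL2 alone 455 rose (2.05%) and 313 fell (1.41%).

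Over the 1224 induced genes the median RA change was 0.55 in shCT and 0.56 in shLOXL2, and the median difference was -0.0043. A smaller rise in knockdown cells was estimated for 51.0% of them. Over the 1065 repressed genes the medians were -0.53 (shCT) and -0.48 (shLOXL2), and 63.0% had an estimated fall that was shallower in knockdown cells (median difference 0.059). That tilt varied with the fit, and the repressed genes were chosen anew in each. Without replicate 1 of shLOXL2 without RA the median difference of the 1305 genes then chosen was -0.045, with 41.5% shallower falls. Leaving out 1 array unbalances the design, so that choice of genes is no longer independent of the difference. For the fixed 92 genes that fell by at least 1 log2 unit, leaving out that array gave 60.9% shallower falls, against 57.6% with all arrays. Without the 4 arrays the median difference was 0.016 with 52.5%. A further quantile normalization gave 54.3%. For induced genes, also chosen anew, the share with a smaller rise ran from 45.2% to 62.2% as single arrays were left out. The average signal of the repressed genes without RA was 6.90 in replicate 1 of shLOXL2, below the other 5 arrays without RA (6.97 to 7.05).

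Strong responders had median responses close to those of control. The median RA change of strongly induced genes was 1.32 in shCT and 1.27 in shLOXL2, and that of strongly repressed genes -1.28 and -1.21. The rise was estimated as smaller in knockdown cells for 87 of the 142 induced genes (61.3%), and the fall as shallower for 53 of the 92 repressed genes (57.6%), beside a weaker estimate for 52.1% of all genes. At an unadjusted p below 0.05, 10 induced genes had a weaker and 3 a stronger response, and 2 repressed genes a weaker and 4 a stronger one. Over all 22180 genes there were 377 with a weaker and 275 with a stronger response. As single arrays were left out, the share ran from 54.9% to 69.7% for induced and from 50% to 62.0% for repressed genes, and without the 4 arrays it was 69.0% and 54.3%. As a percentage of the control change, the response in knockdown cells had a median of 94.0% over induced genes (quartiles 82.1% and 106%) and of 95.1% over repressed genes (quartiles 81.9% and 109%). No strongly induced gene had an estimate under 50% of control, and 1 strongly repressed gene did, Apela, which encodes a peptide ligand of the apelin receptor, at 49.0%. Above 150% lay 6 induced and 2 repressed genes. With RA, the arrays of the 2 constructs did not overlap for 34 induced (23.9%) and 12 repressed genes (13%), beside 12.5% of all 22180 genes. Without RA they did not overlap for 25 induced (17.6%) and 23 repressed genes (25%), beside 8.23% of all genes.

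**Figure D1:**
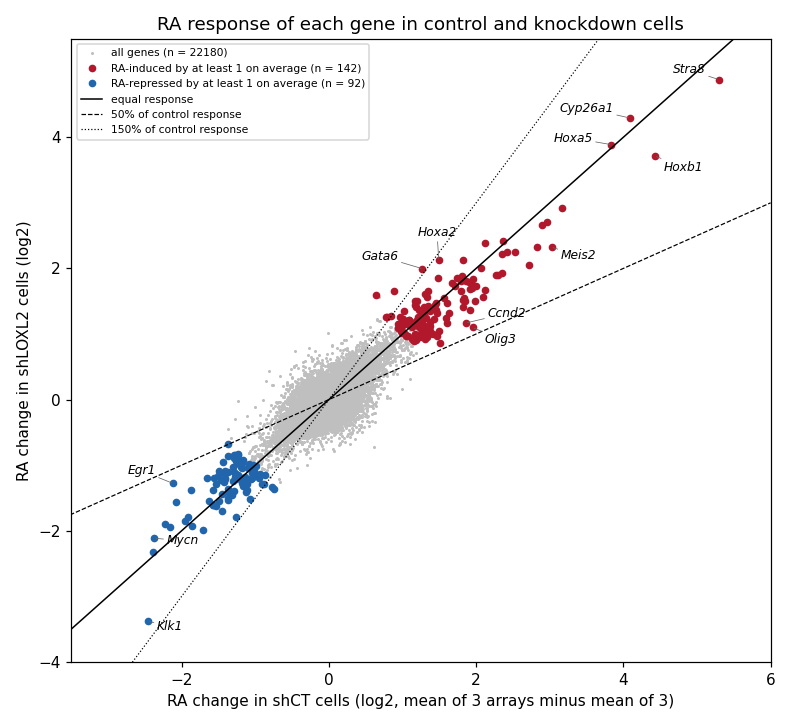
RA change of each gene in shCT cells (horizontal axis, log2, mean of 3 arrays minus mean of 3) against its RA change in shLOXL2 cells (vertical axis, log2), for all 22180 genes (grey) and for genes induced (red, 142) or repressed (blue, 92) by at least 1 on average. The coloured genes lie along the line of equal response and, with Apela as the exception at 49.0%, beyond the line for 50% of the control response.

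In the plot of RA changes in both constructs, the genes farthest from the origin are Stra8, Cyp26a1, Hoxb1 and Hoxa5 among the induced genes and Klk1 among the repressed ones. Stra8, a gatekeeper of meiosis induced by retinoic acid, had signals of 4.22, 4.11 and 4.58 without RA and 9.74, 9.41 and 9.64 with RA in shCT, and of 4.43, 4.64 and 4.61 without RA and 9.58, 9.22 and 9.51 with RA in shLOXL2. Both constructs reached the same range with RA. Its RA change was 5.29 in shCT and 4.88 in shLOXL2, a difference of -0.41 ± 0.22 (SE, 3 arrays per group) with a 95% confidence interval from -0.88 to 0.05, and the knockdown response was 92.2% of control. Without the 4 arrays the difference was -0.66.

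Among genes that make, bind and degrade retinoic acid, none had an unadjusted p below 0.05 for the difference of responses. Of 17 measured genes of retinoid metabolism 7 rose on average of both constructs and none fell; over these 7 the median response in knockdown cells was 91.4% of control, with smaller estimated rises for 4 and larger ones for 3. Over all 17 the median difference was -0.02. In shCT alone 7 of the 17 rose, and in shLOXL2 alone 5. The average signal of the 7 genes with RA was 6.523, 6.514 and 6.511 in shCT and 6.378, 6.33 and 6.316 in shLOXL2. Without RA it was 4.835, 4.598 and 4.495 against 4.68, 4.461 and 4.524. For these 7 the arrays with RA did not overlap, and those without RA did. The average over all 17 overlapped in both RA states. Cyp26a1 stood at 4.36, 4.41 and 3.83 without RA and at 8.29, 8.18 and 8.39 with RA in shCT. In shLOXL2 it stood at 4.11, 3.88 and 4.01 without RA and at 8.23, 8.17 and 8.48 with RA. The arrays with RA overlapped between the constructs, and the difference was 0.21 (95% confidence interval -0.28 to 0.70), or 105% of the control response, and 0.53 without the 4 arrays. The repeat of hexamers printed above for Cyp26a1 thus lies upstream of a gene whose rise of 4.09 in control cells was 4.29 in knockdown cells.

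Dhrs3, a reductase that turns retinaldehyde back into retinol, had a difference of -0.25 (interval -0.71 to 0.21; 91.4% of control). Crabp2, which carries retinoic acid to its nuclear receptor, had one of -0.26 (interval -0.79 to 0.26; 86.8%). Stra6, the cell-surface receptor for retinol uptake, had one of 0.27 (interval -0.35 to 0.88; 113%), which changed to -0.03 without replicate 1 of shCT without RA. The lowest percentage among the named genes of this list was that of Cyp26c1, another retinoic acid hydroxylase, at 49.0%, with an RA change of 0.74 in shCT and 0.36 in shLOXL2. Its interval, from -0.83 to 0.08, held equal responses too.

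Among 8 receptor genes and cofactors, Rarb and Nrip1 rose. Rarb had signals of 3.88, 3.67 and 3.86 without RA and 5.5, 5.59 and 5.33 with RA in shCT, and of 3.72, 3.83 and 3.49 without RA and 5.49, 5.25 and 5.62 with RA in shLOXL2. The 2 constructs overlapped in both RA states, and the RA change was 1.67 against 1.78, a difference of 0.10 (interval -0.32 to 0.53), and of 0.0085 without the 4 arrays. Nrip1, a corepressor of nuclear receptors, changed by 2.42 and 2.24 (difference -0.17, interval -1.01 to 0.66). The receptors Rara, Rarg and Rxrg did not pass the threshold for RA in either construct or on average, and their differences were -0.21, -0.13 and -0.0026.

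The Hox genes, which encode the homeodomain factors that set position along the body axis, were measured for 36 cluster members. Of these 19 rose on average of both constructs and none fell. The rise was estimated as smaller in knockdown cells for 14 of the 19 and as larger for 5, with a median of 83.9% of the control response. Over all 36 genes 26 had a difference below 0 and 10 above 0, beside 48.2% below 0 over all genes, and the median difference was -0.18, beside 0.0088 over all genes. At an unadjusted p below 0.05 there were 6 of the 36 with a lower and 1 with a higher response, beside 1.83% and 1.11% of all genes. The list's median ran from -0.23 to -0.08 as single arrays were left out and was -0.14 without the 4 arrays high on the axis, so it kept its sign in those fits. The average signal of the 19 genes with RA was 6.12, 6.12 and 6.05 in shCT and 5.94, 5.77 and 5.92 in shLOXL2, and without RA 4.60, 4.40 and 4.20 against 4.28, 4.52 and 4.40. The arrays with RA did not overlap, and those without RA did.

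The clusters differed in their estimates. In HoxB all 10 genes rose on average, 9 of them with smaller estimated rises in knockdown cells (median 82.0% of control, from 43.8% to 126%). In HoxA 8 of 9 genes rose, 4 with smaller and 4 with larger estimates (median 93.8%, from 57.0% to 143%). In HoxC 1 of 9 rose, Hoxc5, at 16.2% of control, and 6 of the 9 had differences below 0. In HoxD none of 8 rose and 7 had differences below 0. Whether HoxA and HoxB differ from each other was not tested.

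Hoxb1, a hindbrain patterning gene at the 3′ end of HoxB, stood at 5.19, 5.09 and 4.62 without RA and at 9.19, 9.44 and 9.55 with RA in shCT. In shLOXL2 it stood at 4.97, 5.01 and 5.22 without RA and at 9.33, 8.51 and 8.51 with RA. Replicates 2 and 3 of shLOXL2 with RA lay below all shCT arrays with RA, and replicate 1 lay among them. The difference was -0.71 ± 0.31 (interval -1.37 to -0.05, unadjusted p = 0.0367, limma adjusted p = 1), and it ran from -0.99 to -0.54 as arrays were left out. Hoxb2, its neighbour, had 6.52, 6.64 and 6.22 with RA in shCT against 6.21, 5.73 and 6.04 in shLOXL2, which did not overlap. Its difference was -0.51 (interval -0.97 to -0.04; 82.1% of control). By estimate most of the control rise of both genes remained in knockdown cells.

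Hoxa5, Hoxa4 and Hoxa3 had estimates near 0, whereas Hoxa6, on the other side of Hoxa5, had a smaller estimated rise. Hoxa5 stood at 4.07, 3.62 and 3.48 without RA and at 7.69, 7.60 and 7.41 with RA in shCT, and at 3.28, 3.73 and 3.86 without RA and 7.71, 7.23 and 7.58 with RA in shLOXL2. The constructs overlapped in both RA states, with a difference of 0.05 (interval -0.54 to 0.63) that changed to -0.18 without the 4 arrays. Hoxa3 and Hoxa4 had differences of 0.01 and 0.02. Hoxa2 had the highest difference in the clusters, with 5.18, 5.0 and 5.66 with RA in shCT against 5.40, 5.5 and 5.76 in shLOXL2, and a difference of 0.64 (interval 0.04 to 1.24; 0.99 without the 4 arrays). Its arrays overlapped in both RA states. Hoxa6 had the smallest p among the HoxB and HoxA genes, with a rise of 1.51 in shCT and 0.86 in shLOXL2. Its arrays with RA (5.99, 5.84 and 5.99 in shCT, 5.79, 5.58 and 5.37 in shLOXL2) did not overlap, and the difference was -0.65 (interval -1.08 to -0.22, unadjusted p = 0.00624, limma adjusted p = 1).

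Several of the Hox genes with low values have signals near the lower end of the arrays. Hoxc5, singled out after its values were seen, had 4.48, 4.17 and 3.87 with RA in shCT and 3.37, 3.52 and 3.85 in shLOXL2, all below the mean array median of 4.63. Hoxd12 did not rise on average (RA change 0.52 in shCT and -0.27 in shLOXL2, all arrays below that median). Of the 142 strongly induced genes, 38 lay below the array median in shCT without RA, so their rises are lower bounds where part of the signal is background, and no background level was set.

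**Figure D2:**
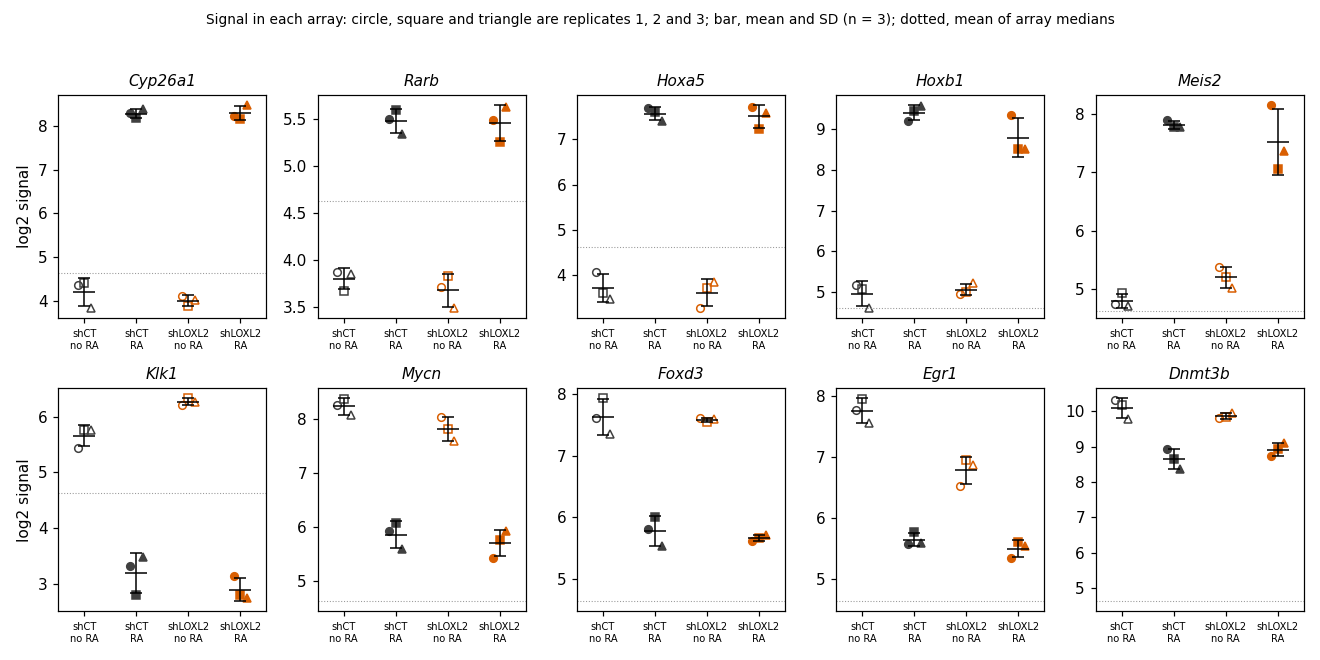
Log2 signal in each of the 12 arrays for 10 genes, one panel per gene with its own vertical scale; circles, squares and triangles are replicates 1, 2 and 3, open symbols are without RA, filled ones with RA, and bars give the mean and SD of 3 arrays. Cyp26a1, Rarb and Hoxa5 reach the same level in both constructs with RA, replicates 2 and 3 of Hoxb1 and Meis2 in shLOXL2 with RA lie below the shCT arrays, and Egr1 starts lower in shLOXL2 without RA.

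The list of other RA targets, which holds Stra8, had the lowest median difference of all lists, -0.20 over 17 measured genes. Of these, 11 had differences below 0 and 6 above. The median ran from -0.22 to -0.05 as single arrays were left out and was -0.09 without the 4 arrays. On average 6 of the 17 rose and 1 fell, with a median response of 92.2% of control. Homeodomain partners of Hox proteins and the caudal genes also leaned low. Of 14 measured TALE and Cdx genes 7 rose and 1 fell on average, and the median response of these 8 was 93.1% of control. Over all 14 genes 10 had a difference below 0 and 4 above, with a median of -0.16, which ran from -0.25 to -0.10 as single arrays were left out. At an unadjusted p below 0.05 there was 1 with a lower response, Meis2, beside 1.83% of all genes. Meis2, a TALE cofactor of Hox proteins, stood at 4.74, 4.93 and 4.70 without RA and 7.89, 7.78 and 7.78 with RA in shCT, and at 5.38, 5.20 and 5.02 without RA and 8.15, 7.06 and 7.36 with RA in shLOXL2. In shLOXL2 it began higher than in every shCT array, and with RA replicate 1 lay above the shCT arrays and replicates 2 and 3 below. The difference was -0.70 (interval -1.36 to -0.04), or 76.8% of control, and -1.02 without replicate 1 of shLOXL2 with RA. Meis1, its paralogue, had nearly equal responses of 1.75 and 1.86 (difference 0.12, interval -0.28 to 0.51), and Cdx1, a caudal activator of Hox genes, had 2.35 and 2.22 (difference -0.13, interval -0.62 to 0.36). Pknox2, another TALE gene, had 1.42 and 1.0 (interval -1.06 to 0.22).

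The lowest differences among strongly induced genes, picked by their differences and so given as a description, were those of Olig3, Hoxb1, Meis2, Ccnd2, Tgfb1i1 and Hoxa6. Ccnd2, the G1 cyclin D2, had signals of 6.07, 6.83 and 6.75 without RA and 8.29, 8.51 and 8.43 with RA in shCT, and of 6.73, 6.64 and 6.35 without RA and 7.92, 7.63 and 7.67 with RA in shLOXL2. The arrays without RA overlapped, and with RA every shLOXL2 array lay below every shCT array. The difference was -0.69 (interval -1.26 to -0.12; 62.7% of control), and -0.45 without replicate 1 of shCT without RA. Olig3, a factor of the dorsal neural tube, had 5.93, 6.16 and 5.20 with RA in shCT and 5.66, 4.85 and 4.90 in shLOXL2. These arrays overlapped, and the difference was -0.85 (interval -1.61 to -0.09), moving to -1.47 without the 4 arrays. Tgfb1i1, a focal adhesion adaptor, had a difference of -0.66 (interval -1.27 to -0.05), and -1.04 without those 4 arrays.

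Lineage lists held few responders each, read against the 5.52% of all genes that rose and the 4.8% that fell. Of 23 neural progenitor genes 3 rose and 2 fell on average, and 15 of the 23 had differences below 0 (median -0.10). Sox1, the earliest marker of neural fate, rose on average, with a change of 1.06 in shCT and 0.57 in shLOXL2 (interval -1.16 to 0.18). Msi1, an RNA-binding protein of neural stem cells, had 0.90 and 0.94. Of 16 genes of the primitive streak and mesoderm 2 rose, and 12 of 16 had differences below 0 (median -0.09). At an unadjusted p below 0.05 there were 2 lower and 1 higher, beside 1.83% and 1.11% of all genes. Wnt3, a ligand that starts the streak, had an RA change of 0.65 in shCT and 0.20 in shLOXL2, and its arrays with RA (4.71, 4.80 and 4.53 against 4.42, 4.13 and 4.07) did not overlap. Its interval ran from -0.86 to -0.04. Both list medians changed sign without replicate 3 of shCT without RA, to 0.02 each.

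Larger rises in knockdown cells were estimated for a second group. The highest differences among strongly induced genes, again picked by that value, belonged to Tmem229b-ps, Zbtb10, Gata6, Hoxa2, Bhlhe40 and Fgfr2. Such a choice favours genes with a lower start in shLOXL2. Tmem229b-ps, a pseudogene, had 5.65, 6.43 and 6.14 with RA in shCT and 6.54, 6.58 and 6.16 in shLOXL2, and began lower in every shLOXL2 array. Its difference was 0.95 (interval 0.32 to 1.57; 248% of control). Zbtb10, a zinc finger repressor, stood at 6.43, 6.23 and 6.69 without RA and 7.34, 7.19 and 7.48 with RA in shCT, and at 6.24, 5.62 and 5.38 without RA and 7.54, 7.24 and 7.45 with RA in shLOXL2. Both constructs reached the same level with RA, and replicates 2 and 3 of shLOXL2 began lower. The difference was 0.77 (interval 0.17 to 1.38; 187% of control). Gata6, the regulator of primitive endoderm, began at 7.61, 6.83 and 6.61 in shCT and at 6.61, 6.59 and 6.54 in shLOXL2, and reached 8.70, 8.19 and 7.98 against 8.26, 8.66 and 8.81. Its arrays with RA overlapped, and the difference of 0.72 (interval -0.02 to 1.47) became 0.43 without replicate 1 of shCT without RA. Fgfr2, a receptor for fibroblast growth factors, began lower in every shLOXL2 array without RA (5.71, 5.40 and 5.49 against 6.29, 5.93 and 5.78) and overlapped with RA, with a difference of 0.48 (interval -0.03 to 0.98). Bhlhe40, a repressor of the circadian and hypoxia pathways, had the same pattern of a lower start without overlap and an interval from -0.33 to 1.30. Of 18 genes of primitive endoderm 2 rose on average. Over the 18 genes, 9 had differences below 0 and 9 above (median -0.02). Their average signal was 7.17 without RA and 7.13 with RA in replicate 1 of shCT, against 6.16 to 6.67 in the other 10 arrays. The median was -0.23 without replicate 1 and 0.26 without replicate 3 of shCT without RA.

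Genes of meiosis and the germline, apart from Stra8, leaned the other way from the Hox list. Of 17 measured 4 rose and 2 fell on average, and 15 of 17 had differences above 0 (median 0.20, beside 0.0088 over all genes), none at an unadjusted p below 0.05. The cohesin subunit Rec8 had an RA change of 1.19 in shCT and 1.41 in shLOXL2, and the RNA-binding protein Dazl had 1.08 and 1.13. The recombinase Dmc1, which was not called for RA, had -0.07 and 0.35. These genes also moved with the axis within groups: their median slope was 0.18 log2 units per SD of the axis, and the average signal of the list was highest in arrays that lay high on it (5.99 and 6.15 in replicate 3 of shCT without and with RA, 5.93 and 6.32 in replicate 1 of shLOXL2). The part of the axis in the list's median was not tested. The median was 0.18 without those 4 arrays and 0.07 without replicate 3 of shCT without RA.

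**Figure D3:**
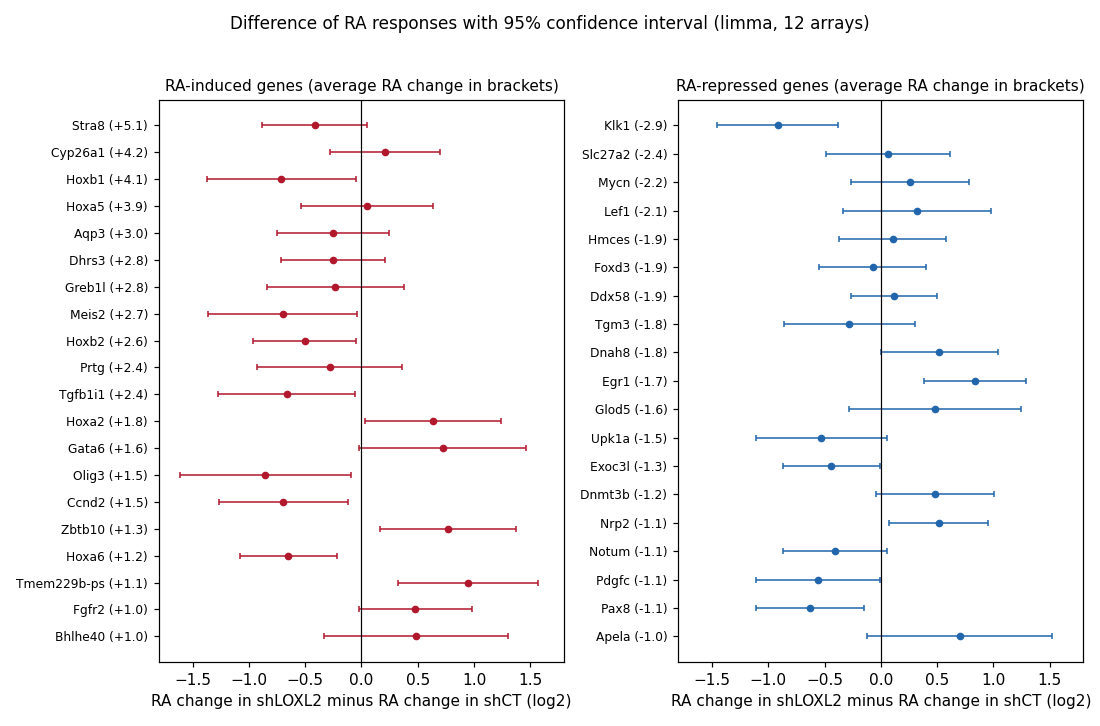
RA change in shLOXL2 minus RA change in shCT (horizontal axis, log2) with its 95% confidence interval from limma over 12 arrays, for the induced genes (left) and repressed genes (right) with the largest average changes or the extreme differences. The average RA change stands in brackets after each gene, and all adjusted p-values were 1. Many intervals cross 0 and others do not. Genes with extreme differences were picked by that value, which favours intervals that do not cross 0.

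Among genes that RA repressed, the 10 largest named falls were seen in both constructs, with unlike sizes for some. Mycn, a proliferation factor of the Myc family, stood at 8.26, 8.38 and 8.08 without RA and 5.92, 6.08 and 5.59 with RA in shCT, and at 8.04, 7.82 and 7.59 without RA and 5.44, 5.76 and 5.93 with RA in shLOXL2. It began lower in every shLOXL2 array and ended in the same range, with a fall of 89.1% of the control size (difference 0.26, interval -0.26 to 0.78; 0.45 without the 4 arrays). Slc27a2, a fatty acid transporter, changed by -2.39 and -2.33 (interval of the difference -0.49 to 0.61). Hmces, which protects abasic sites in DNA, changed by -1.96 and -1.86, and Ddx58, the cytosolic RNA sensor RIG-I, by -1.91 and -1.79. Lef1, a transcription factor of the Wnt pathway, changed by -2.22 and -1.90 (interval -0.33 to 0.98). By estimate these 5 genes kept 85.5% to 97.4% of the control fall. The others of the 10 ranged more widely: Egr1 60.5%, Dnah8 75%, Foxd3 104%, Tgm3 116% and Klk1 137%.

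Genes at the core of pluripotency fell at least as far in knockdown cells by estimate. Of 12 measured 6 fell on average, and all 6 had deeper estimated falls in shLOXL2, with a median of 121% of the control response. Of all 12 genes 10 had differences below 0 (median -0.10), none at an unadjusted p below 0.05. The forkhead factor Foxd3 stood at 7.61, 7.94 and 7.36 without RA and 5.80, 6.0 and 5.53 with RA in shCT, and at 7.61, 7.55 and 7.60 without RA and 5.61, 5.66 and 5.71 with RA in shLOXL2. The constructs overlapped in both states, with a difference of -0.07 (interval -0.55 to 0.41; -0.019 without the 4 arrays). Pou5f1, which encodes OCT4, changed by -0.50 and -0.63 (interval -0.48 to 0.22), Utf1, a chromatin factor of undifferentiated cells, by -0.55 and -0.85 (interval -0.78 to 0.17), and Zscan10 by -1.05 and -1.22. The list's median stayed below 0 as single arrays were left out (-0.18 to -0.04).

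Genes of naive pluripotency were split. Of 18 measured 2 rose and 10 fell on average, 7 of the 12 with smaller and 5 with larger estimated responses (median 93.4% of control). The nuclear receptors Nr5a2 and Nr0b1 changed by -1.41 and -1.11 in shCT and by -1.19 and -1.29 in shLOXL2. Tcl1, a coactivator of the kinase AKT, changed by -1.45 and -1.44. Tbx3, a T-box factor that rose instead, had 1.15 and 0.69, with an interval from -0.94 to 0.01 and -0.78 without the 4 arrays.

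The deepest fall in knockdown cells against control was that of Klk1, a kallikrein protease. Its signals were 5.43, 5.76 and 5.76 without RA and 3.31, 2.79 and 3.48 with RA in shCT, and 6.20, 6.33 and 6.27 without RA and 3.13, 2.79 and 2.75 with RA in shLOXL2. Every shLOXL2 array without RA lay above every shCT array, and with RA the arrays overlapped near the lower end of the scale. The difference was -0.92 ± 0.25 (interval -1.46 to -0.38, unadjusted p = 0.00272, limma adjusted p = 1; 137% of control) and ran from -1.12 to -0.77 as arrays were left out. A like pattern, with a higher start in every shLOXL2 array and overlap with RA, was found for Pax8, Upk1a, Exoc3l and Notum among the 6 lowest differences of repressed genes. These were picked by their differences, a choice that favours a higher start. Without RA the constructs did not overlap, in either direction, for 25% of strongly repressed genes and 8.23% of all genes. Pax8, a paired box factor, had a difference of -0.63 (interval -1.11 to -0.15). Notum, which inactivates Wnt ligands, had one of -0.40 (interval -0.87 to 0.06). Pdgfc, a platelet-derived growth factor, was the exception, with overlap in both RA states and a difference of -0.56 (interval -1.11 to -0.01).

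Shallower falls were estimated for genes downstream of fibroblast growth factor and ERK. Of 20 measured genes of ERK feedback and the immediate early response 4 rose and 7 fell on average, 9 of these 11 with smaller estimated responses in knockdown cells (median 82.5% of control). Of all 20 genes 13 had differences above 0 (median 0.08). Egr1, an immediate early factor, stood at 7.77, 7.95 and 7.55 without RA and 5.57, 5.76 and 5.59 with RA in shCT, and at 6.52, 6.95 and 6.86 without RA and 5.34, 5.61 and 5.54 with RA in shLOXL2. Without RA every shLOXL2 array lay below every shCT array, and with RA they overlapped. The difference was 0.84 ± 0.21 (interval 0.38 to 1.29, unadjusted p = 0.00151, limma adjusted p = 1; 60.5% of control), and it ran from 0.71 to 0.94 as arrays were left out. Spry2, a feedback inhibitor of ERK, had 9.42, 9.09 and 8.88 without RA in shCT and 8.80, 8.69 and 8.72 in shLOXL2, without overlap, and overlapped with RA. Its difference was 0.52 (interval -0.01 to 1.06; 54.8%). Spry4, its paralogue, also began lower in every shLOXL2 array and had a difference of 0.30 (interval -0.27 to 0.86).

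The other highest differences of strongly repressed genes were those of Apela, Dnah8, Nrp2, Glod5 and Dnmt3b. They were picked by that value, as was Egr1, and the choice favours a lower start in shLOXL2. Dnmt3b, a de novo DNA methyltransferase, had 10.30, 10.18 and 9.77 without RA and 8.93, 8.65 and 8.36 with RA in shCT, and 9.80, 9.85 and 9.95 without RA and 8.72, 8.92 and 9.09 with RA in shLOXL2. The constructs overlapped in both states, and the difference was 0.48 (interval -0.04 to 1.01; 66.5% of control). Dnmt3l, its cofactor, changed by -1.10 and -1.04, and Tet1, a methylcytosine dioxygenase, by -0.66 and -0.53. Nrp2, a coreceptor for semaphorins and vascular growth factors, began lower in every shLOXL2 array (5.54, 5.88 and 5.89 against 5.99, 6.36 and 6.36) and had a difference of 0.51 (interval 0.08 to 0.95). Dnah8, an axonemal dynein, also began lower without overlap, with a difference of 0.52 (interval -0.0019 to 1.04).

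Among other repressed functions, the formative epiblast list had 8 genes that fell and 1 that rose of 16, 7 of the 9 with smaller estimated responses (median 88.9%). Otx2, an anterior homeobox factor, changed by -1.57 and -1.39 (interval -0.23 to 0.61). In the list of the LIF receptor and STAT3, the self-renewal pathway, 8 fell and 3 rose of 14, 7 of the 11 with smaller estimates (median 82.4%). Stat3 changed by -0.61 in shCT and -0.30 in shLOXL2, and its feedback inhibitor Socs3 by -0.71 and -0.36. The kinase Pim1 rose by 1.25 and 0.98, with shLOXL2 arrays at 10.05, 10.06 and 10.05 with RA below the shCT arrays at 10.33, 10.54 and 10.48. Of 22 genes of epithelial junctions and splicing 10 fell and 2 rose, 8 of the 12 with smaller estimates (median 87.6%). The epithelial regulators Grhl2 and Esrp1 changed by -1.57 and -1.46 in shCT and by -1.60 and -1.23 in shLOXL2. The list medians over all members lay between 0.0023 and 0.03 for these 3 lists and changed sign in at least 1 of the fits with an array left out.

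**Figure D4:**
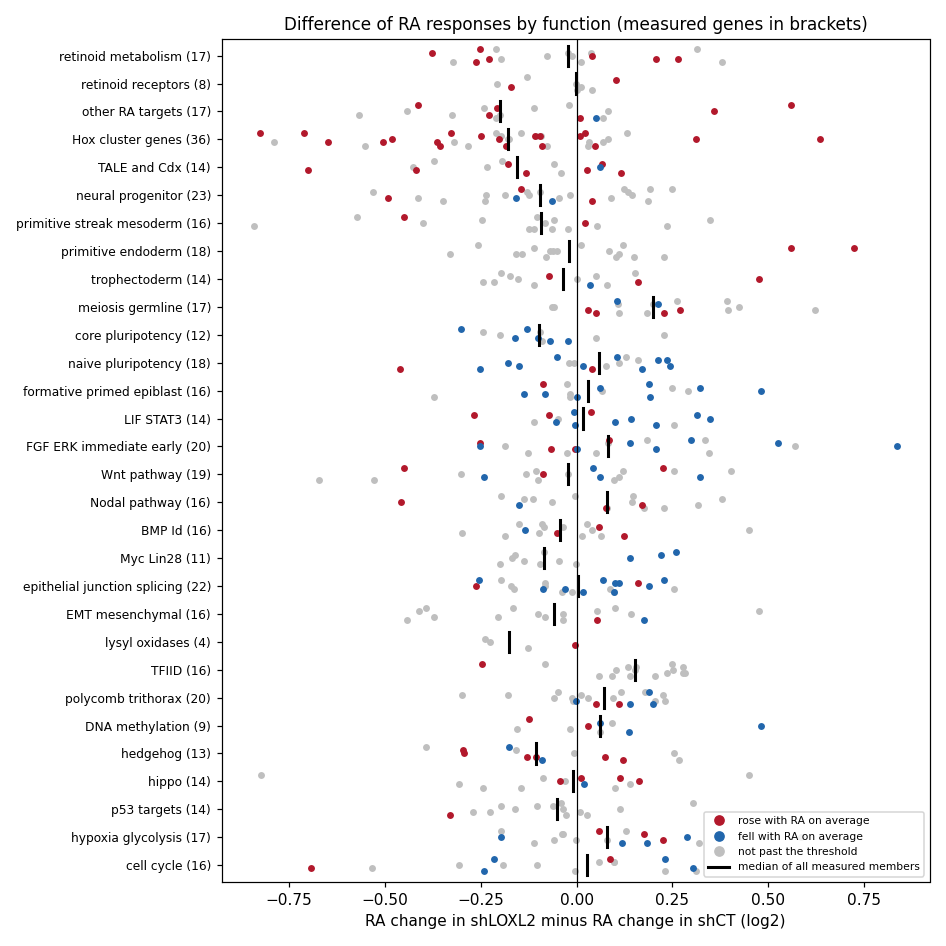
Difference of RA responses (horizontal axis, log2, shLOXL2 minus shCT) for every measured gene of 30 lists of genes, grouped by function on the vertical axis with the number measured in brackets; red points rose with RA on average, blue points fell, grey points did not pass the threshold, and black bars mark the median of all measured members. The medians lie between -0.20 and 0.20, with the other RA targets, Hox genes and lysyl oxidases at the low end and meiosis and TFIID at the high end.

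In the plot of differences by function, the spread among members of a list exceeded the shift of its median throughout. The TFIID list, the complex that holds TAF10, had 14 of 16 members above 0 (median 0.15, from -0.25 to 0.28), and only Taf9b changed with RA on average. Its average signal ran with the axis too, from 7.36 in replicate 1 to 7.69 in replicate 3 of shCT without RA, and the part of the axis was not tested. All 4 measured relatives of Loxl2 in the lysyl oxidase list had differences below 0, from -0.24 to -0.0048, and Loxl1, the one that rose on average, had equal estimates of 0.49 in both constructs. In the Wnt list 3 of 19 genes had a lower response at an unadjusted p below 0.05, beside 1.83% of all genes. They were Wnt3, Rnf43 and, outside the rule for named genes, Wnt6, and the list's median was -0.02. Rnf43, which removes Wnt receptors from the cell surface, was not called for RA on average and had changes of 0.61 in shCT and -0.06 in shLOXL2.

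Genes with a small p for the difference were called for RA about as often as any gene. Of the 652 at an unadjusted p below 0.05, 11.8% were called on average, beside 10.3% of all genes. A mean signal below the array median was found for 61.3% of the 652, beside 41.3% of all genes. Of the 10 smallest p, 1 was a gene called for RA, Egr1, and 5 were below the array median. Tead3, a DNA-binding partner of the Hippo effector YAP, was one of the 10 and lay above the array median. It stood at 5.03, 5.23 and 5.08 without RA and 5.74, 5.90 and 5.54 with RA in shCT, and at 5.58, 5.53 and 5.80 without RA and 5.5, 5.51 and 5.27 with RA in shLOXL2. In this gene the shCT arrays lay below the shLOXL2 arrays without RA and above them with RA (difference -0.82, interval -1.23 to -0.41). Pate1, which had the smallest p of all (0.00028, limma adjusted p = 1), lay between 2.79 and 3.64 on all 12 arrays, and Gm15080, the next, between 3.04 and 4.36. The kinase gene Btk, with a difference of -0.77, lay below the array median as well.

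How large a difference the 12 arrays could have called sets the limit of these statements. The median standard error of the difference was 0.227 over all genes, 0.257 over strongly induced and 0.244 over strongly repressed genes, with 13.4 moderated degrees of freedom. At an unadjusted p of 0.05 the median strongly induced gene needed a difference of 0.55 log2 units, and to pass the threshold as the single called gene among 22180 it needed 2.02 (1.92 for repressed genes). The median RA change of these genes in control cells was 1.32 and -1.28. For most of them a complete loss of the response in that gene alone would thus not have been called. Had many genes lost their response together, the Benjamini-Hochberg limit would have been lower, and that case was not computed. For a single called gene, a complete loss was large enough for 25 of 142 induced and 15 of 92 repressed genes. A loss of 50% was large enough for 2 induced genes and 0 repressed ones, and a loss of 25% for none of either. Without the adjustment, a loss of 50% would have reached a p of 0.05 for 98 of 142 and 64 of 92 genes. All these counts take the estimated difference to equal the loss. A true loss of just the needed size would give an estimate below that limit about as often as above it.

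**Figure D5:**
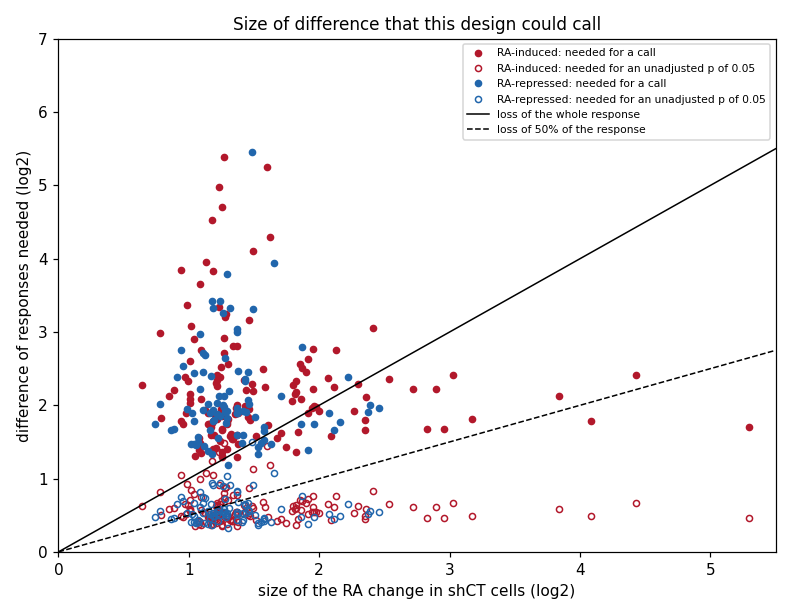
Size of the difference of RA responses that a single gene needed for a Benjamini-Hochberg call among 22180 genes (filled) and for an unadjusted p of 0.05 (open), on the vertical axis in log2 units, against the size of the RA change in shCT cells (horizontal axis, log2), for 142 induced (red) and 92 repressed (blue) genes. Filled points under the solid line are 25 induced and 15 repressed genes. Their loss of the whole response could have been called as the single gene, had the estimate equalled the loss. Filled points under the dashed line are the 2 induced genes for which loss of 50% could.

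In the plot of callable differences the few genes with large responses stand apart from the rest. A missed threshold does not show equal responses, so bounds on the response kept were computed as well. The 95% interval of the knockdown response lay above 50% of control for 106 of 142 strongly induced genes and 67 of 92 strongly repressed genes, beside 4.81% of all genes. It lay below 150% for 84 and 44 genes (4.1% of all genes), and within both bounds for 68 and 31 (0.5%). These shares of all genes are low because a bound on a ratio needs a response to begin with. Unlike the difference, these bounds are also not independent of the average RA change by which the strong genes were chosen. That choice favours genes inside both bounds, so the shares of all genes are no fair comparison. For 106 induced and 73 repressed genes the interval of the difference lay within 1 log2 unit of 0, and for 22 and 19 within a fold of 1.5.

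After adjustment over all genes a response above 50% of control was called for 7 genes (0.0316%), of which 6 rose and 1 fell. The induced ones were Stra8 (limma adjusted p = 9.69e-05), Cyp26a1 (9.69e-05), Hoxa5 (0.00213), Aqp3 (0.02), Dhrs3 (0.02) and Meis1 (0.0312), and the repressed one was Klk1 (0.000382). Aqp3, a channel for water and glycerol, stood at 9.49, 9.42 and 9.17 with RA in shCT and at 9.54, 9.52 and 9.39 in shLOXL2, and its response was 92.0% of control. A response below 150% was called for 4 genes (0.018%), namely Stra8, Hoxb1, Hoxb2 and Egr1. The limma adjusted p was 0.000889 for Stra8 and 0.0421 for each of the others. Stra8 was thus the one gene with both bounds called, and its knockdown response was 92.2% of control. The 6 induced genes became 3 without replicate 2 of shCT with RA, replicate 2 of shLOXL2 without RA, or replicate 1 or 2 of shLOXL2 with RA, each left out alone. Fits that describe the spread between arrays in another way called more genes, counted among the genes called on average in the same fit. They called 53 induced and 29 repressed when the axis was a covariate, and 105 and 82 with array weights. The axis was taken from these arrays, so as a covariate it lowers the within-group spread by construction. Array weights were likewise estimated from the spread of these arrays.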

How the data were processed

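E14 cells with shCT or shLOXL2, without and with RA, were profiled on 12 arrays. The authors deposited log2 signals, 1 per transcript cluster and array, from 0.567 to 13.8; RMA, limma and R 3.1.1 are named, without role or order, per the submitters' processing notes. Raw intensities were not used here, and scaling between arrays removes shifts common to most genes. Of 41345 clusters, 23521 had 1 gene in the platform annotation, 1814 several and 16010 none; 23328 matched RefSeq by gene ID. The brightest cluster stood for each of the 1082 genes with several, which left 22180 genes and no filter on signal.

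One limma fit (limma 3.58.1, statmod 1.5.0, R 4.3.3) over all arrays, with 1 mean per group, gave RA changes, their average, their difference, and the knockdown change minus 50% or 150% of the control change. P-values were adjusted by Benjamini-Hochberg over all genes at 0.05. Errors are standard errors, intervals are 95%, and the number of arrays limits the precision. The difference needed for a call was the standard error times the t quantile at 0.05, or at 0.05 divided by the number of genes. A percentage of control is the ratio of the 2 changes. The 33 lists of genes (506 genes, 470 measured) are described by counts and medians without a test. The fit was tested on simulated data.

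Named genes were, among genes called on average with a change of at least 1, the 10 largest rises and falls and the 6 lowest and highest differences per direction, without predicted or numbered symbols, microRNAs, small nucleolar RNAs and odour or pheromone receptors. The 10 smallest p for the difference, up to 4 members per list by RA change and 2 by p, and Loxl2 and Taf10 were added. The genes, lists and tests were chosen with earlier results of these data known. Alternatives covered replicate blocks, scaling, moderation, a filter on dim genes, gene summary, array weights and leaving out each array; the within-group axis as a covariate and a fit without the 4 arrays high on it were added after seeing the data.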

Additional observations from a re-analysis of the deposited data

How the results depend on the processing

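Under every alternative run, 0 genes were called for the difference of responses; the smallest adjusted p ran from 0.0787 with array weights (weights from 0.332 to 6.26) to 1. The number of genes at an unadjusted p below 0.05 (652) was 565 with the replicate number as a block over all groups, 1228 with construct and number as a fixed block and 1331 as a random block (correlation 0.323). It was 195 among the 11090 brighter genes, 1296 over all 41345 transcript clusters, 3555 with array weights, 1487 with the within-group axis as a covariate, 983 without the 4 arrays high on it, and 485 to 1099 as single arrays were left out. Among all genes called as rising or falling on average in the same fit, those called as keeping over 50% of the control response numbered 6 induced and 1 repressed, and became 30 and 18 with the fixed block, 41 and 28 with the random block, 105 and 82 with array weights, and 53 and 29 with the axis as a covariate. Repressed genes numbered 2 after further quantile normalization and 3 with trend and robust moderation, among brighter genes, or without the 4 arrays. As single arrays were left out, induced genes ran from 3 to 9. The median difference ran from -0.0638 to 0.0305 over induced genes and from -0.0454 (without replicate 1 of shLOXL2 without RA) to 0.113 over repressed genes. Both sets of genes were chosen anew in each of these fits. Of 196 named genes, 0 were called in any alternative. The sign of the difference changed for 7 to 25 of them when 1 array was left out. It changed for 27 with array weights, 21 without the 4 arrays and 13 after quantile normalization. The replicate numbers did not pair the arrays by the rule used: deviations of same-numbered arrays within a construct correlated at 0.363, 0.0394 and 0.631 in shCT and at 0.558, 0.248 and 0.216 in shLOXL2. Of 6 arrays per construct, 5 in shCT and 4 in shLOXL2 correlated best with their own number in the other RA state. The cause of these shifts was not tested. Dim genes limit the text too, since no background level was set.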

Other observations

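Pathways outside the main RA programme are given as values, beside 10.3% of all genes that were called for RA on average. Of 13 hedgehog genes 6 rose and 2 fell on average, and 9 of 13 had differences below 0 (median -0.11). Ptch1, the hedgehog receptor and a target of the pathway, stood at 7.71, 7.72 and 7.90 without RA and 8.0, 8.03 and 8.18 with RA in shCT, and at 7.21, 7.24 and 7.45 without RA and 7.03, 7.28 and 7.29 with RA in shLOXL2. Its arrays did not overlap between the constructs in either RA state, it was not called for RA on average, and its difference was -0.39 (interval -0.78 to -0.01, limma adjusted p = 1). Hhip, which sequesters hedgehog ligands, rose on average, by 1.24 in shCT and 0.95 in shLOXL2 (interval of the difference -0.99 to 0.40).

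Of 16 genes of BMP signalling and the Id family 3 rose and 1 fell on average. The inhibitory Smad gene Smad6 changed by 1.09 and 1.21 (interval -0.25 to 0.49), and the ligand gene Bmp4 by -1.32 and -1.45 (interval -1.05 to 0.78). Lefty1, a Nodal antagonist, rose by 2.13 and 1.67 (interval -1.21 to 0.30). Of 20 polycomb and trithorax genes 2 rose and 4 fell, with 13 of 20 differences above 0 (median 0.07), and the polycomb subunit Phc1 changed by -0.50 in each construct. The glucose transporter gene Slc2a1, in the hypoxia list, changed by 0.74 and 0.80, and its arrays did not overlap between the constructs in either RA state. Zscan4c, a marker of the two-cell-like state, rose on average, with 8.82 without RA and 9.95 with RA in replicate 1 of shLOXL2, against 6.77 to 8.54 in the other 10 arrays, and the interval of its difference, from -1.45 to 1.28, was among the widest of the named genes.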
